A study of Mus musculus with 16 samples.

Results

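In white adipose tissue (WAT) of high-fat-fed mice, 150 protein-coding autosomal genes had no count in either library of fl/fl mice on vehicle and at least 50 counts in each of the other 6 WAT libraries. They were taken from 20492 genes that could have qualified, of 55421 listed, and 166 passed before the ranking by the lowest CPM (a gene's count scaled by the library total) kept the top 150. Symbols starting Prm, Tnp, Cyp, Hsd, Apo, Col or Hist were left out beforehand, which removed 1 gene, Apoh. The counts of the 8 WAT libraries chose these genes, so their contrast with fl/fl vehicle WAT is described here and not tested. Of the 15 on cell type lists, 11 were on lists of sperm formation, which hold 339 genes the rule could take. The other 4 were on the list of the epididymis, the duct in which sperm mature, which holds 42.

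The series holds 16 RNA-seq libraries of C57BL/6 mice, 2 in each of 8 groups. For each of WAT and liver, the groups were Lyz2-cre+ mice with floxed Gpr132 (CKO) given NOX_6_18, CKO mice given vehicle, fl/fl mice given NOX_6_18 and fl/fl mice given vehicle. All mice carried the floxed Gpr132 allele and were on a high-fat diet (HFD), NOX_6_18 is described as an antagonist, and the Lyz2 promoter drives Cre in macrophages, neutrophils and other myeloid cells. The labels speak of macrophages of WAT or liver, while the extraction text has the tissue itself put in liquid nitrogen; they give neither the fat depot, the age nor the sex of the mice, nor whether replicate libraries are different animals, so that p-values measure only how libraries of a group scatter, which may be technical.

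The WAT libraries summed to between 48348395 and 58396991 counts, and the liver libraries to between 45624957 and 60761705. Gpr132, the gene targeted in CKO mice, stood at 58.2 and 60.7 CPM in CKO NOX_6_18 WAT, 36.6 and 66.4 CPM in CKO vehicle WAT and 61.8 to 66.2 CPM in fl/fl WAT, and only the first CKO vehicle library stood apart. In liver it had 2.87 and 2.39 CPM in CKO NOX_6_18 against 2.16 and 1.61 CPM in fl/fl NOX_6_18, and 1.89 and 1.43 CPM in CKO vehicle against 4.27 and 4.01 CPM in fl/fl vehicle. Both CKO liver values thus lay below those of fl/fl on vehicle and above them on NOX_6_18, and counts over the whole gene need not show the loss of a floxed exon in part of the cells. Of the macrophage markers, Adgre1 (F4/80) had 371 to 383 CPM in the 6 WAT libraries and 575 and 559.7 CPM in fl/fl vehicle WAT. The adipocyte list summed to 1770.3 to 1958 CPM in the 6 and to 2190.3 to 2375 CPM in fl/fl vehicle WAT, most of it from the lipid carrier gene Fabp4, with 1261 to 1435 CPM in the 6 and 2001 and 1823 CPM in fl/fl vehicle. Its genes went different ways: the hormone gene Adipoq had 11.1 to 12.7 CPM in the 6 and 7.94 and 5.29 CPM in fl/fl vehicle, and the lipid droplet gene Plin1 9.78 to 10.9 CPM and 10.2 and 11.4 CPM. In bulk samples, fewer cells of a type and less RNA per cell cannot be told apart.

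Sperm form in the testis, where spermatogonia divide, spermatocytes recombine their chromosomes and pass through meiosis, and round spermatids then build an acrosome and a flagellum and pack their chromatin. Sertoli cells nurse the germ cells and Leydig cells make androgens. Sperm leaving the testis mature in the epididymis, whose epithelium secretes lipocalins, cystatins, defensins and proteases in a pattern that changes along the duct. Many genes of late spermatogenesis are used in few other tissues, and a good part of them carry only clone names.

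The region around the transcription start was looked at because genes used in few tissues often have starts poor in CG dinucleotides. Of the 150 genes, 114 matched a window in the RefSeq promoter table (GRCm38.p6), from 250 bases before to 50 after the start. A pair from the 10 highest ranked genes shows the extremes of CG content among genes with a single window, with each CG in capitals. The window of 1700017N19Rik lies at chr10:100592136-100592435 (+) and has 0 CG, and that of Thegl, a relative of the spermatid gene Theg, lies at chr5:77015773-77016072 (+) and has 27.
1700017N19Rik: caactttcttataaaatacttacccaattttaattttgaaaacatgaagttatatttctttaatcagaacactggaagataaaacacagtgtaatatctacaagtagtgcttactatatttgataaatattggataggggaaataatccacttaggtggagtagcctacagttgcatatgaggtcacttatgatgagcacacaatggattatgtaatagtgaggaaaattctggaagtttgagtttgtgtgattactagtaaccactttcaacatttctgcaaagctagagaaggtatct
Thegl: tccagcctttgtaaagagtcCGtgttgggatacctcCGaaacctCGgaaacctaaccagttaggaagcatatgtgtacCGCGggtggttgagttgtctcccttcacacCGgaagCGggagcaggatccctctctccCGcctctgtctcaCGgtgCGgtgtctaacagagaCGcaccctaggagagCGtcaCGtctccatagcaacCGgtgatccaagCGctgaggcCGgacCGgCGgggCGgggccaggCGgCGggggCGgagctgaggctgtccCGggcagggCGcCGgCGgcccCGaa

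The next window holds the full cAMP response element TGACGTCA, the palindrome bound by CREB and CREM, of which CREM is a known activator of spermatid genes; it is in capitals. It came from a search on both strands of the 114 windows. The window of Trim52, a tripartite motif gene, lies at chr14:106105948-106106247 (+).
Trim52: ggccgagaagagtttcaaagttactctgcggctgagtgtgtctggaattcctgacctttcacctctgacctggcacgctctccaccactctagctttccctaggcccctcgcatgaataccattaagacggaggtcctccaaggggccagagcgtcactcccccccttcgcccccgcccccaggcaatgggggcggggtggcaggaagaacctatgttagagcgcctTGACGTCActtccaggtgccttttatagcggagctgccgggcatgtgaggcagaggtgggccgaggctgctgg

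The 150 genes were at low levels in the 6 libraries, in each of which the rule asked for counts. Their summed level was 599 and 578 CPM in CKO NOX_6_18 WAT, 681 and 592 CPM in CKO vehicle WAT, 624 and 606 CPM in fl/fl NOX_6_18 WAT, and 0 and 0 CPM in fl/fl vehicle WAT. The highest of these sums, in the first CKO vehicle library, includes 72.2 CPM from the single gene Ldhal6b. The mean over the 6 libraries ran from 1.49 to 32.2 CPM among the genes, with a median of 3.05 CPM, and the lowest of the 6 values ran from 1.12 to 14.3 CPM with a median of 2.34 CPM. Per kilobase of exon, the median of the mean levels was 1.87 CPM.

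A count of 0 sets only a limit. Allowing 3 counts over both fl/fl vehicle libraries puts it at 0.0290 CPM. This is 0.0900% to 1.94% of the mean of the other 6 libraries, with a median of 0.951%. The means of the 6 were thus 51.5 to 1111 times this limit, the highest that of the uneven gene Ldhal6b. The limit would cover counting error for a gene fixed beforehand only if counts were independent. These genes were chosen for their zeros in the same libraries, so it does not bound their true level. Counts were also not all independent: in the first fl/fl vehicle library 1123 genes had a count of 4 while 518 had 3 and 677 had 5. The reverse pattern, 0 in the 6 libraries and at least 50 counts in both fl/fl vehicle libraries, was met by 0 genes, and the same rule applied to the liver libraries was met by 3.

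**Figure D1:**
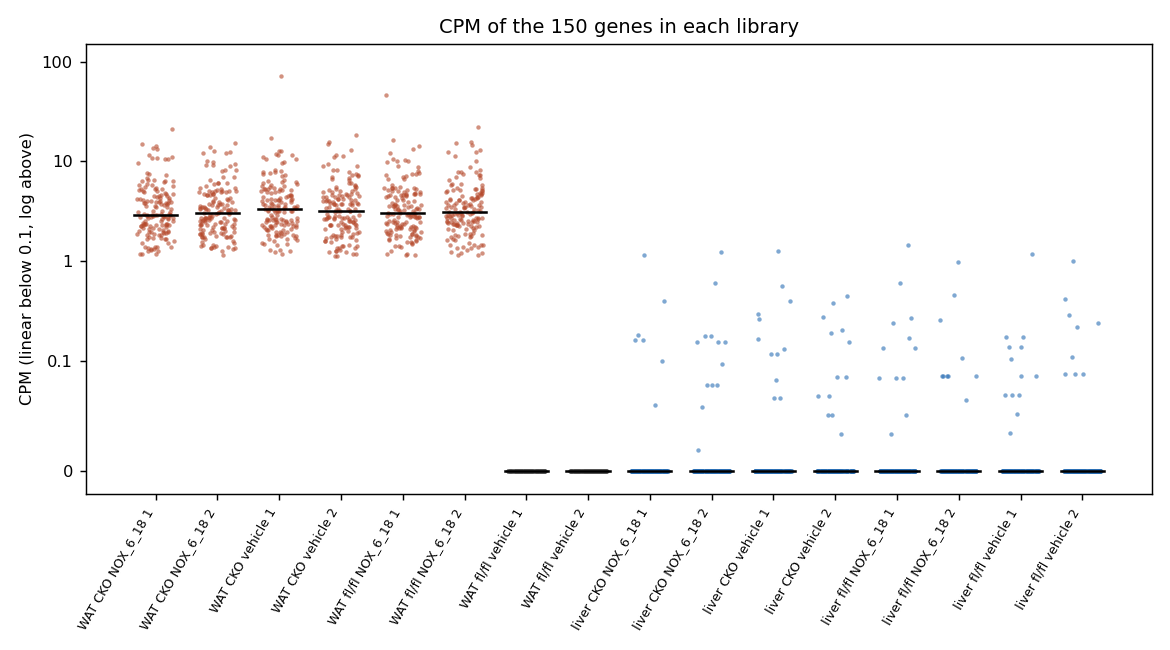
CPM of each of the 150 genes (points) in the 16 libraries, with the median of the genes as a bar; the axis is linear below 0.1 CPM and logarithmic above. All points of the first 6 WAT libraries lie above 1.12 CPM, both fl/fl vehicle WAT libraries are at 0 throughout, and liver libraries have 7 to 13 genes above 0.

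Genes of the meiotic spermatocyte list were led by Boll, an RNA-binding protein of the DAZ family that male mice need to form sperm. Boll (chr1:55248658-55363469; coordinates of genes are GRCm38) had 14.8 and 13.9 CPM in CKO NOX_6_18, 12.6 and 14.7 CPM in CKO vehicle and 13.3 and 15.2 CPM in fl/fl NOX_6_18, against 0 and 0 in fl/fl vehicle. The 3 groups overlapped one another, and the mean of the 6 libraries was 487 times the limit of 3 counts in fl/fl vehicle. Terb1, which ties telomeres to the nuclear envelope during meiosis, had 4.38 to 5.90 CPM over the 6 libraries. Msh4, needed for crossovers, had 2.47 to 4.69 CPM. Syce3, a central element of the synaptonemal complex, had 1.89 to 3.14 CPM. All 4 were among the 44 genes of the meiotic spermatocyte list that the rule could take.

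Acrosome genes came next. Prss21 (testisin), a membrane-anchored serine protease of sperm, had 9.53 and 9.01 CPM in CKO NOX_6_18, 11 and 9.36 CPM in CKO vehicle and 8.98 and 8.72 CPM in fl/fl NOX_6_18, against 0 and 0 in fl/fl vehicle. Ace3, an acrosomal relative of angiotensin-converting enzyme, had 10.6 and 9.10 CPM in CKO NOX_6_18, 8.26 and 7.86 CPM in CKO vehicle and 10.4 and 7.81 CPM in fl/fl NOX_6_18, against 0 and 0 in fl/fl vehicle. Among the 3 groups with counts, the fl/fl NOX_6_18 values of Prss21 lay just below the others, and the CKO NOX_6_18 values of Ace3 lay above those of CKO vehicle. Izumo3, of the family of the fusion protein Izumo1, had 5.71 to 7.31 CPM over the 6. Outside the lists, 3 more members of the Prss family, Prss43, Prss44 and Prss45, lay side by side at chr9:110813994-110841313.

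The genes ranked first and second are relatives of dehydrogenases. Mdh1b, a malate dehydrogenase relative on the axoneme list (chr1:63698819-63730318), had 14.3 and 15.3 CPM in CKO NOX_6_18, 17.2 and 15.7 CPM in CKO vehicle and 16.5 and 14.7 CPM in fl/fl NOX_6_18, against 0 and 0 in fl/fl vehicle. Both CKO NOX_6_18 values lay below both CKO vehicle values, and fl/fl NOX_6_18 overlapped both. Ldhal6b, a lactate dehydrogenase relative (chr17:5417323-5418767), was the most uneven, with 21.1 and 12.7 CPM in CKO NOX_6_18, 72.2 and 18.4 CPM in CKO vehicle and 46.5 and 22.2 CPM in fl/fl NOX_6_18, against 0 and 0. The CKO NOX_6_18 values lay below those of fl/fl NOX_6_18 and overlapped those of CKO vehicle. The gene overlaps the exons of Gm29050, with which it is nearly identical, so reads between the pair are uncertain. From the flagellum list came Iqcf1, a sperm protein needed for full motility, with 4.16 to 5.77 CPM over the 6.

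From the spermatid list came Rbmxl2, a germ cell splicing regulator, with 3.64 to 6.46 CPM, and Poteg, an ankyrin repeat gene that overlaps Gm45861, with 1.74 to 4.12 CPM. The other genes of the highest 10 were Tmem30c (11 to 15.4 CPM, overlapping Gm26800), of the family of flippase subunits, Thegl (10.6 to 13.0 CPM), Cc2d2b (9.65 to 13.7 CPM), a relative of the ciliary gene Cc2d2a, Slco6d1 (8.97 to 11.6 CPM), a relative of the gonadal transporter genes of the Slco6 family, and the clone-named 1700019A02Rik (9.15 to 11.2 CPM) and 1700017N19Rik (8.95 to 13.3 CPM). None of these 6 was on a list.

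The epididymal list gave 4 genes. Lcn9, a lipocalin, had 6.35 and 5.96 CPM in CKO NOX_6_18, 7.24 and 7.04 CPM in CKO vehicle and 6.98 and 5.81 CPM in fl/fl NOX_6_18, against 0 and 0 in fl/fl vehicle. The CKO NOX_6_18 values lay below those of CKO vehicle, within the range of fl/fl NOX_6_18. Cst11, a cystatin-related protein of the duct, had 3.34 to 4.02 CPM over the 6, Adam28 had 3.71 to 5.94 CPM and the lipocalin Lcn10 had 1.71 to 2.71 CPM. Lcn9 and Lcn10 lay with Tmem210 at chr2:25288145-25825537, and Cst11 with Cst9 and Cst13 at chr2:148768609-148838738. Adam28 is also known from lymphocytes, so its place on the list is not exclusive.

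**Figure D2:**
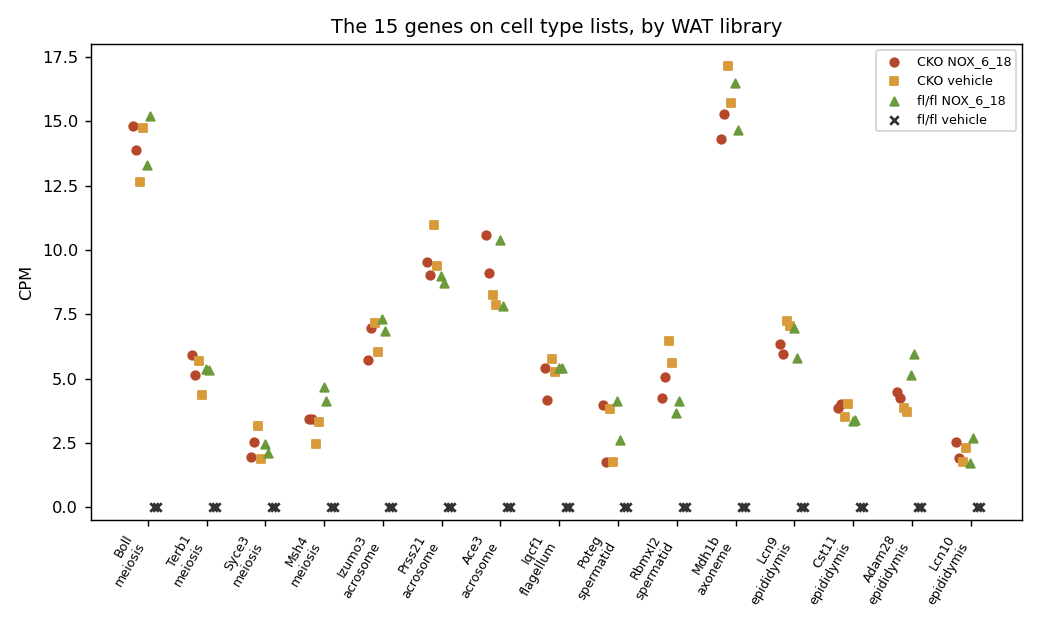
CPM of the 15 genes on cell type lists in each of the 8 WAT libraries, grouped by list. Circles, squares and triangles (CKO NOX_6_18, CKO vehicle, fl/fl NOX_6_18) lie between 1.71 and 17.2 CPM, and crosses (fl/fl vehicle) are at 0.

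In all, 15 of the 150 genes (10%) stood on 1 of 24 cell type lists, against 2.97% of the genes the rule could take. Beside the number of genes on each list that the rule could take, these were meiotic spermatocyte 4 of 44 and acrosome and sperm-egg fusion 3 of 51. Spermatid differentiation gave 2 of 55, sperm flagellum 1 of 60, motile cilium axoneme 1 of 87 and epididymal epithelium 4 of 42. The 7 lists of sperm formation held 11 of the 150 genes (7.33%), against 1.65% of the genes the rule could take. The axoneme list, 1 of these 7, is of motile cilia and not of sperm alone. The other 18 lists held none, among them spermatogonia, the piRNA pathway, Leydig and Sertoli cells, hepatocytes, neutrophils, macrophages, adipocytes, and fibroblasts and endothelium. Some had few genes the rule could take with at least 50 counts in the 6: 5 for Leydig cells and 7 for neutrophils, against 18 for macrophages. These shares describe the choice and carry no test, since the lists were written with earlier results known.

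The remaining 135 genes were on no list, and their names and families were read after the choice. Clone names ending in Rik made up 24 of the 150 (16%, against 2.59% of the genes the rule could take); 8 of these begin with 1700 and 12 with prefixes from 4921 to 4933, both given to clones from adult mouse testis libraries. Predicted genes with a Gm number made up 29 (19.3%, against 5.91%). Among the 97 named otherwise, Aurkc (1.34 to 2.52 CPM) encodes a kinase of meiotic division, Pou5f2 (2.88 to 4.01 CPM) a POU factor of male germ cells, Sun3 (3.77 to 5.71 CPM, overlapping Gm11992) a nuclear envelope protein of spermatids and Tssk5 (2.66 to 4.2 CPM) a kinase of the testis-specific family. Naa11 (2.35 to 3.59 CPM), a retrogene of the acetyltransferase Naa10, is active in the testis. The kallikreins Klk1b24 (2.37 to 4.42 CPM) and Klk1b27 (1.58 to 2.95 CPM) are known from mouse Leydig cells. Neither was on the Leydig list, and the cells they came from here were not tested.

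Not every gene has a known link to the male tract. Dsg1a (5.26 to 7.31 CPM), a desmosomal cadherin of epidermis, Muc3 (2.60 to 3.71 CPM), an intestinal mucin, Tmc1 (2.28 to 3.73 CPM), a channel of inner ear hair cells, and the signalling gene Wnt3 (1.26 to 2.10 CPM) were also chosen. Il31 (3.06 to 3.77 CPM), a T cell cytokine gene, overlaps exons of Lrrc43, and without a stated strand setting the reads of the pair cannot be told apart. In all, 21 of the 150 genes overlapped an exon of another gene.

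Part of the 150 are copies of one another. By alignment of their longest transcripts (at least 95% identity over at least 80% of the length), 32 had a near-identical gene elsewhere and 18 a near-identical other gene among the 150, so the values of each are uncertain and 136 groups remain when copies count once. The copies were grouped by chromosome: 5 genes including Speer4a, of a spermatogenesis-associated family, at chr5:25935791-26121421, 5 Gm genes at chr5:146167976-146540427, and groups of 4, 3 and 2 Gm genes on chromosome 14. Chromosome 5 held 22 of the 150 (14.7%, against 6.08% of the genes the rule could take) and chromosome 14 held 20 (13.3%, against 4.39%). A further 8 genes, among them Klk1b8, Klk1b24 and Klk1b27, lay at chr7:43492044-45729492 with gaps under 1 Mb.

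The genes were short, with a median of 1721.5 exon bases against 3586 for the genes the rule could take and 3658 for the 7850 others with at least 50 counts in the 6 libraries at the same range of mean CPM. The coefficient of variation over the 6 libraries had a median of 16.8% among the 150 and 10.6% among those others. That range ran from 1.49 CPM to the 32.2 CPM of Ldhal6b, while the median of the 150 was 3.05 CPM. The others were thus not matched to the 150 in level, and the part of level in these differences was not tested. The highest value was at most 2 times the lowest in 127 of the 150 genes. Beside Ldhal6b (70.9%), the largest coefficient was that of Gm10377 (54.9%), one of the copied genes on chromosome 14.

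At the edges of the rule, the last 3 genes kept, Gm3409, E330034G19Rik and Gm10413, had lowest values of 1.15, 1.12 and 1.12 CPM, and the next below, 4930451I11Rik, 4933412E24Rik and 4930449I24Rik, had 1.11, 1.10 and 1.07 CPM. Just inside the count minimum were 1700008P02Rik and Banf2 with 50 counts and Gm14151 with 52; just outside were Gm3460 with 49, Smok3b with 48 and Gm3415 with 47. Loosening the requirement of 0 changed little at first. With at most 1 count in each fl/fl vehicle library 167 genes passed, with at most 2 it was 173 and with at most 3 it was 184. With at most 4 it was 256, at the count that many genes shared (1123 at 4 against 518 at 3 in the first fl/fl vehicle library).

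In promoter windows, CG dinucleotides were few. Their number had a median of 3 in the 114 matched genes and 16 in the 15506 matched genes the rule could take. The median was 18 in the 6067 others in the same range of mean CPM, which were not matched in level. In the 247 sperm list genes outside the 150, the median number of CG dinucleotides was 12. At most 5 were present in 65 of the 114 (57.0%), against 28.2%, 15.9% and 28.3% of those 3 sets. Where a gene had more than 1 window, as 14 of the 114 did, the largest number was used, and near-identical copies count separately. GGGCGG, the core of the GC box bound by SP1, was in 20.2% of the 114 windows on either strand, against 51.9% of all matched genes. TATAAA was in 15.8% against 14.2%, and TGACGTCA in 2 (1.75%), among them the window of Trim52 shown above, against 2.71%. CG also forms part of GGGCGG and TGACGTCA, and a match is a description, not a site of binding.

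**Figure D3:**
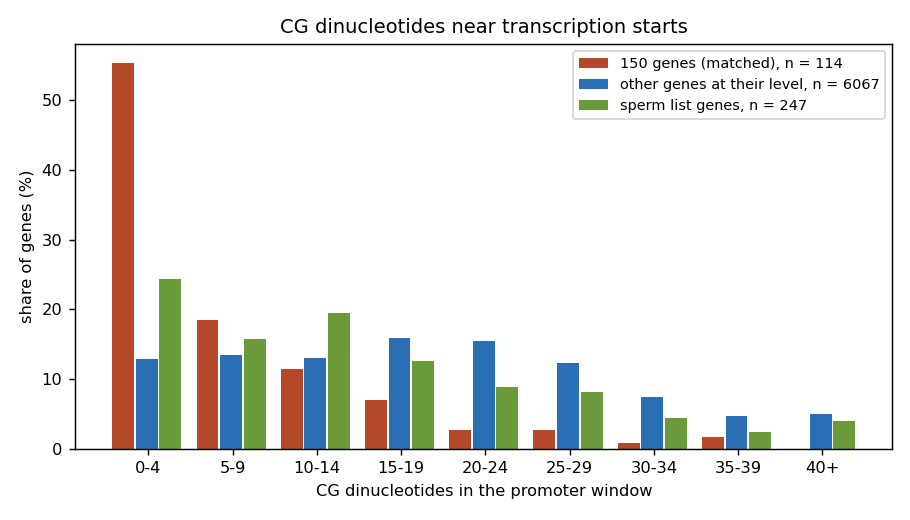
Share of genes (percent) by the number of CG dinucleotides in the promoter window, for the 114 matched genes, other genes in the same range of mean CPM (n = 6067) and sperm list genes outside the 150 (n = 247). The leftmost bars, 0 to 4 CG, are highest for the 114 genes, whose median is 3.

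Contrasts among the 3 groups with counts leave out fl/fl vehicle, but they use libraries whose counts and lowest CPM chose and ranked the 150 genes, which keeps low values in any of the 3 groups out. They are therefore given as a description from which nothing is read about the genes. NOX_6_18 against vehicle in CKO WAT called 0 of the 150 genes by edgeR's quasi-likelihood test with Benjamini-Hochberg adjustment over 25871 genes. The background was 0.0155% (4 genes). An unadjusted p under 0.05 was found for 3 of the 150 and for 898 of all 25871 genes, and DESeq2 also called 0 of the 150. CKO against fl/fl on NOX_6_18 called 0 of 150, with a background of 0.0348% (9 genes). Here 1 of the 150 and 618 of all 25871 genes had an unadjusted p under 0.05, and DESeq2 called 0 of the 150. The 2 contrasts share the CKO NOX_6_18 libraries.

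Fold changes went both ways. In CKO WAT, NOX_6_18 over vehicle, 66 genes lay above 0 and 84 below on the log2 scale, with a median of -0.06 over the 150, against 0.00 over all genes, and a median standard error (SE) of 0.28. They ran from -1.43 to 0.85, and 2 were past 1 in size, those of Ldhal6b (-1.43, SE 0.63) and Gm10377 (-1.23, SE 0.59), the most uneven genes of the 150. The smallest p-values were those of the Gm gene Gm3486, with 1.18 and 1.67 CPM in CKO NOX_6_18 and 2.47 and 2.92 CPM in CKO vehicle (log2 fold change -0.92, SE 0.34), and of Saxo1, a microtubule-binding protein of cilia and flagella, with 2.86 and 3.50 CPM against 4.16 and 5.56 CPM (log2 fold change -0.61, SE 0.25). In both genes the 2 groups did not overlap, and neither was called.

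With NOX_6_18, CKO over fl/fl, 68 genes lay above 0 and 82 below, with a median log2 fold change of -0.02 over the 150 and a median SE of 0.28. They ran from -1.02, again Ldhal6b (SE 0.63), to 0.65. Of the smallest p-values, Tmem30c had 11 and 12.3 CPM in CKO and 14.1 and 15.4 CPM in fl/fl (log2 fold change -0.34, SE 0.14). Tmem239, which overlaps Gm28372, had 4.22 and 4.95 CPM in CKO and 3.0 and 3.12 CPM in fl/fl (log2 fold change 0.58, SE 0.25). A p that misses the threshold does not show that the groups are alike.

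**Figure D4:**
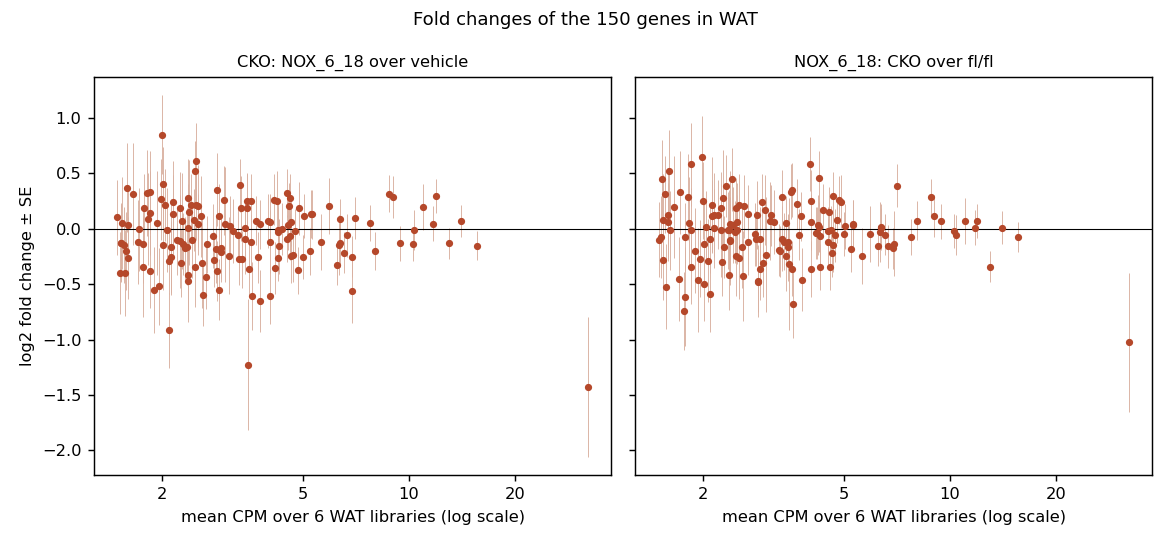
log2 fold change with its SE against the mean CPM over the 6 WAT libraries (log axis) for each of the 150 genes, for NOX_6_18 over vehicle in CKO WAT (left) and CKO over fl/fl with NOX_6_18 (right). Points scatter about 0 in both panels; the isolated gene at 32.2 CPM is Ldhal6b.

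Liver, which the rule did not use, held almost none of these transcripts. Of the 150 genes, 119 had no count in any of the 8 liver libraries and 31 had a count in at least 1. Their summed level per library was 2.08 to 3.51 CPM, with 7 to 13 genes detected. Fam83e, of a family of signalling scaffold proteins, was the one gene with at least 50 counts in any liver library; it had 1.15 and 1.22 CPM in CKO NOX_6_18 liver, 1.25 and 0.375 CPM in CKO vehicle, 1.43 and 0.965 CPM in fl/fl NOX_6_18 and 1.17 and 1.01 CPM in fl/fl vehicle, with all groups overlapping. Muc3 had 0.137 to 0.606 CPM, and its 2 fl/fl vehicle values, 0.137 and 0.219 CPM, were the lowest. Pou5f2 reached 0.560 CPM, 2010109I03Rik 0.416 CPM and Dsg1a 0.296 CPM, each with 0 in at least 2 libraries.

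The 4 contrasts in liver could test 5 of the 150 genes and called 0 of them by edgeR. The background was 5.52% for NOX_6_18 against vehicle in fl/fl, 5.80% for CKO against fl/fl on vehicle, 0.0359% for NOX_6_18 against vehicle in CKO and 0.0359% for CKO against fl/fl on NOX_6_18, over 19515 genes. In the same order 3, 1, 2 and 1 of the 5 genes had an unadjusted p under 0.05, and DESeq2 called 0 in each. Over all 19515 genes, 3622, 3550, 792 and 864 had an unadjusted p under 0.05. Zfp819, a zinc finger gene, had 0.236 and 0.257 CPM in fl/fl NOX_6_18 liver against 0 and 0 in fl/fl vehicle liver (edgeR adjusted p = 0.143), and 2010109I03Rik had 0 and 0 in fl/fl NOX_6_18 liver against 0.171 and 0.416 CPM in fl/fl vehicle liver (edgeR adjusted p = 0.121).

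List genes outside the 150 show which other transcripts were low in fl/fl vehicle WAT. Both contrasts that involve fl/fl vehicle share its libraries with the rule, and the lists were written with earlier results known, so the counts describe and do not support. NOX_6_18 against vehicle in fl/fl WAT called 466 of 568 list genes tested, 428 higher and 38 lower, where the background was 37.8% of 25871 genes called, 24.6% higher and 13.2% lower. CKO against fl/fl on vehicle called 465 of 568, 430 higher and 35 lower, where the background was 36.8%, 24.4% higher and 12.4% lower. Over all genes NOX_6_18 in fl/fl WAT called 6373 higher and 3411 lower; scaled by library totals alone, which raised the median of all genes by 0.17 on the log2 scale, these were 7496 and 1585. With NOX_6_18 in fl/fl mice, all 48 acrosome genes and all 60 flagellum genes tested rose, by edgeR at adjusted p under 0.05. So did 57 of 59 spermatid, 86 of 87 axoneme, 21 of 22 piRNA pathway and 37 of 40 meiotic genes. In CKO over fl/fl on vehicle, all 48 and all 60 were also higher. In the order of the other lists, 57 of 59, 85 of 87, 20 of 22 and 37 of 40 were.

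Their fl/fl vehicle level was low. It was above 0 by the choice, since list genes with 0 in both fl/fl vehicle libraries and at least 50 counts in the 6 were among the 150. Among list genes outside the 150 with at least 50 counts in the 6 libraries, the mean CPM in fl/fl vehicle was 2.23% of the mean of the 6 at the median acrosome gene, 2.53% at the median flagellum gene, 2.5% at the median spermatid gene and 2.00% at the median piRNA pathway gene. It was 4.26% at the median axoneme gene and 5.97% at the median meiotic gene. Ldhc, the sperm lactate dehydrogenase, had 275 and 291 CPM in fl/fl NOX_6_18 WAT against 4.38 and 4.13 CPM in fl/fl vehicle WAT (log2 fold change 5.89, SE 0.08, edgeR adjusted p = 1.27e-08). Sycp2, of the synaptonemal complex, had 68.3 and 68.7 CPM against 1.47 and 1.38 CPM (log2 fold change 5.42, SE 0.10, edgeR adjusted p = 1.79e-08). The protamine gene Prm1 had 136 and 137 CPM against 2.73 and 2.39 CPM. Both fl/fl vehicle WAT libraries thus held counts of sperm genes.

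How many sperm genes stood at 0 in both fl/fl vehicle libraries differed by level. On the 7 lists, this held for 0 of 6 genes with a mean of 1 to 2 CPM over the 6 libraries, 4 of 26 with 2 to 5 CPM, 5 of 46 with 5 to 10 CPM, 2 of 89 with 10 to 20 CPM and 0 of 155 with 20 CPM or more. Over all genes the rule could take it held for 38 of 454, 97 of 1537, 22 of 1719, 8 of 2471 and 1 of 8288 in the same ranges. Of the 214 sperm list genes outside the 150 but within their range of mean CPM, the fl/fl vehicle level had a median of 4.11% of the mean of the 6, with quartiles of 1.97% and 9.72%, and 21 of them (9.81%) were at or under 0.951%, the median limit of the 150. Of all 7850 genes outside the 150 in that range, these 214 included, 121 (1.54%) were. The fl/fl vehicle level of the 7850 had a median of 84.5% of the mean of the 6. Neither set was matched to the 150 in level. Sperm list genes with 0 in both fl/fl vehicle libraries and at least 50 counts in the 6 were among the 150. The 214 thus held none of them by the choice.

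**Figure D5:**
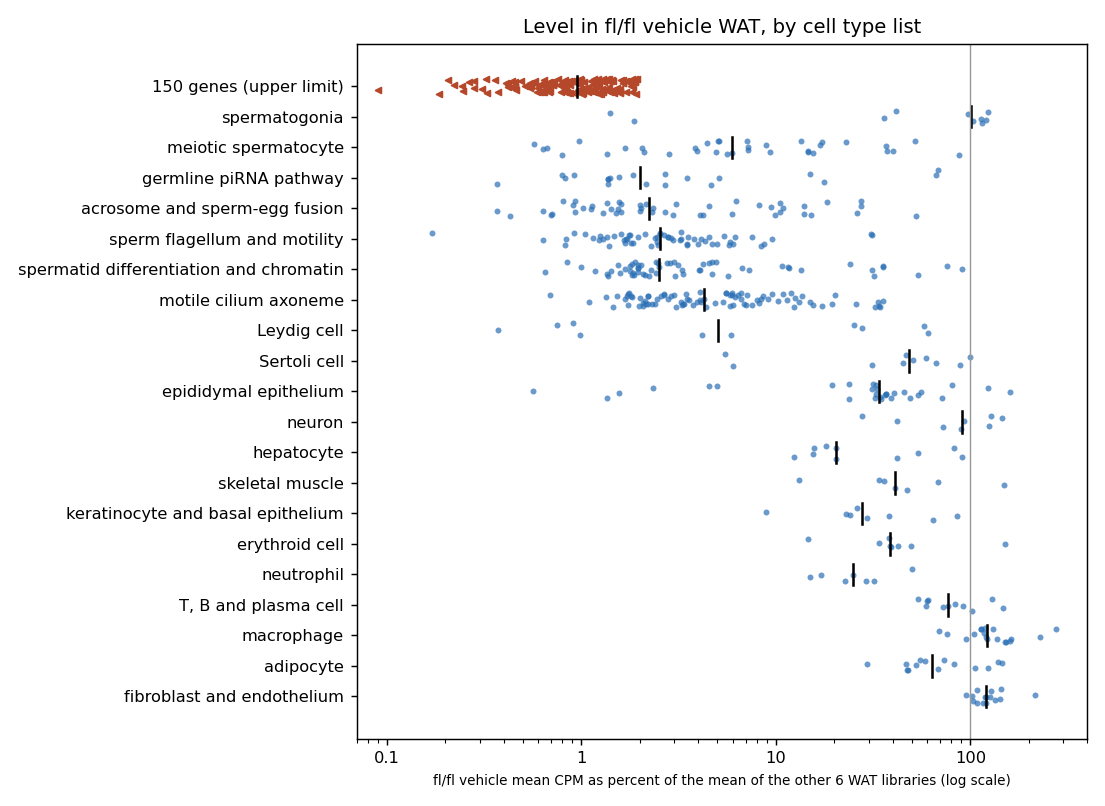
Mean CPM in fl/fl vehicle WAT as a percent of the mean of the other 6 WAT libraries (log axis), for list genes outside the 150 with at least 50 counts in the 6 (circles, lists of at least 5 such genes), with the upper limit for each of the 150 genes in the top row (triangles) and medians as bars. Sperm lists other than spermatogonia have medians of 2.00% to 5.97% and macrophage genes a median of 121% in a range of 69.3% to 277%.

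Lists of other testis cells had medians from near those of the sperm lists upward. Of the Leydig list, 10 of 11 genes tested rose with NOX_6_18 in fl/fl mice, and the median gene with at least 50 counts in the 6 stood at 5.05% in fl/fl vehicle, in a range of 0.371% to 60.2%; Insl3, a peptide hormone of Leydig cells, had 196 and 205 CPM in fl/fl NOX_6_18 WAT against 1.88 and 1.11 CPM in fl/fl vehicle WAT (log2 fold change 6.91, SE 0.21, edgeR adjusted p = 1.25e-07). Of the Sertoli list, 10 of 15 rose and the median gene with at least 50 counts in the 6 stood at 48.7% in fl/fl vehicle. Of the spermatogonia list, 8 of 17 rose and 4 fell, and the median was 100.5%, in a range of 1.4% to 122.8%. Among those that rose, Dmrtb1 had 73.7 and 70.8 CPM in fl/fl NOX_6_18 WAT against 0.848 and 1.18 CPM in fl/fl vehicle WAT (log2 fold change 5.98, SE 0.16). Dazl had 12.98 and 11.01 CPM against 0.248 and 0.181 CPM (log2 fold change 5.64, SE 0.27). Several genes of the list, such as Kit, are also used by other cells, and the part of this in the median was not tested.

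The epididymal genes outside the 150 spread widely. Of 34 tested, 26 rose and 2 fell with NOX_6_18 in fl/fl mice, and the median gene with at least 50 counts in the 6 stood at 33.8% in fl/fl vehicle WAT, in a range of 0.563% to 159.6%. Adam7 had 255 and 243 CPM in fl/fl NOX_6_18 WAT against 89.0 and 93.7 CPM in fl/fl vehicle WAT, and Crisp1, a secreted protein that binds sperm, 423 and 416 CPM against 142 and 121 CPM. Chosen after their values were seen, the lipocalin Lcn8 had 10.2 and 11 CPM against 0.414 and 0.145 CPM and the cystatin Cst8 11.8 and 12.2 CPM against 0.331 and 0 CPM; both are known for the first stretch of the duct. The opposite direction was taken by the glutathione peroxidase gene Gpx5, which had 138 and 126 CPM against 168 and 143 CPM (log2 fold change -0.41, SE 0.09, edgeR adjusted p = 0.0104), and by the defensin-like Spag11b, which had 13.1 and 14.9 CPM against 24.4 and 20.9 CPM (log2 fold change -0.86, SE 0.15, edgeR adjusted p = 0.00267). The call of Gpx5 was lost when scaled by library totals alone (edgeR adjusted p = 0.0777) and without the second fl/fl NOX_6_18 library (edgeR adjusted p = 0.0864). Lcn9, Lcn10, Cst11 and Adam28 thus stood at 0 in fl/fl vehicle WAT while other epididymal transcripts were present there.

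Markers of other cells moved in the same contrast. Of the macrophage list, 13 of 18 genes fell and 2 rose with NOX_6_18 in fl/fl mice, and its summed level was 9817 to 10149.8 CPM in the 6 libraries and 12675 to 13428 CPM in fl/fl vehicle WAT. The fibroblast and endothelium list had 12 of 15 genes fall, with 8496 to 9233 CPM in the 6 and 10827 to 11782 CPM in fl/fl vehicle. The adipocyte list, whose sums are given with the libraries, had 8 of 15 genes rise and 3 fall. The keratinocyte list had 7 of 11 genes rise and 0 fall, with 218 to 233 CPM in the 6 and 61.5 to 69.6 CPM in fl/fl vehicle. A list of multiciliated epithelium without axoneme genes had 5 of 10 rise and 0 fall. It summed to 76.8 to 96.2 CPM in the 6 and 26.8 to 40.5 CPM in fl/fl vehicle. The neutrophil list had 8 of 11 rise and 0 fall, with 177 to 201 CPM in the 6 and 48.7 to 56.6 CPM in fl/fl vehicle. The hepatocyte list had 11 of 18 rise and 0 fall, with 54.2 to 62.1 CPM in the 6 and 14.8 to 15.1 CPM in fl/fl vehicle. CKO over fl/fl on vehicle, which shares the fl/fl vehicle libraries, had 14 of 18 macrophage genes lower and 1 higher. It had 11 of 15 fibroblast and endothelium genes lower and 0 higher, and 7 of 11 neutrophil genes higher and 0 lower. The part of these shifts in the counts of the 150 genes was not tested.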

How the data were processed

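RNA-seq of 16 mouse libraries was analysed, grouped by the sample titles. The authors deposited raw read counts per gene, 1 table of 55421 Ensembl genes a library; HISAT, featureCounts 1.5.0, DESeq 1.8.3 and GRCm38 are named per the submitters' processing notes, without role. Per the labels' protocols, RNA was isolated with TRIzol and libraries made with a KAPA stranded kit; the strand setting of the counting is not given in the sources used here. Identifiers matched GENCODE M21 for 55240 genes (99.7%), and the unmatched took at most 0.0173% of a library.

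Levels are CPM of the library total. Tests used edgeR 4.0.16 (R 4.3.3) with TMM factors, filterByExpr by group, 8 libraries of a tissue in 1 fit, and Benjamini-Hochberg adjusted p under 0.05; DESeq2 1.42.0 was an alternative. SE was taken as the size of the log2 fold change divided by the root of edgeR's F. The fit was tested on simulated data. Limits allow 3 counts over both fl/fl vehicle libraries and cover counting error only, as if counts were independent, which not all were. They take no account of the choice of genes by their zeros. Copies were sought with BLAST 2.17.0, promoters taken from RefSeq. No 2 libraries were identical (0 pairs).

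The genes and the 24 lists (637 genes) were chosen with earlier results of these data known. Genes named are the 10 of highest lowest CPM, those on lists, those at the thresholds, those of smallest p, the 5 highest in liver, 1 with the cAMP response element (the other window is not reported here) and, per list, up to 4 called; Gpr132, Adgre1, Adipoq, Plin1 and the genes named by family or role were chosen after their values were seen. Alternatives changed scaling, filter, tool, block, libraries and each number in the rule.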

Additional observations from a re-analysis of the deposited data

How the results depend on the processing

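The number of genes passing the rule, 166, depended on its limits. It was 262 with a count minimum of 20 and 91 with 100; 272 with all gene types; and, chosen after seeing the data, 256 and 387 with at most 4 or at most 8 counts allowed in each fl/fl vehicle library. Asking for 0 in 1 fl/fl vehicle library gave 292 without the first and 311 without the second, and leaving out each of the other 6 gave 170 to 174. Genes on lists among the top 150 stayed within 1.5 times under 5 other rankings and minimums. The tests called 0 of the 150 genes in each of the 6 contrasts under 14 or 15 alternatives; in WAT the rule used the same libraries. List genes called numbered 428 to 472 and 429 to 468 under 14 alternatives each. Scaling by library totals moved the median of all genes by 0.17 on the log2 scale in NOX_6_18 against vehicle in fl/fl WAT, and the share of higher calls to 82.5%, against 65.1% with TMM; the corresponding shares for CKO against fl/fl were 83.5% and 66.3%. Within each tissue, same-numbered libraries of different groups did not deviate together (r from -0.03 to 0.02 across genes). WAT and liver libraries were not compared in this way, and a shared batch was not tested. With the replicate block, 0 of the 150 genes were called in WAT, and 463 and 456 list genes. Depth limits levels under 0.0290 CPM in fl/fl vehicle WAT, a limit that takes counts as independent, which not all were.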
